A study of Rangifer tarandus with 4 samples.

Results

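The deposited cattle gene annotation contained 1300 transcripts with an intron after the stop codon, out of 37519 transcripts of protein-coding genes. A transcript was taken when at least 2 separate 3′ untranslated segments were annotated for it, so that an exon junction lay in its 3′ untranslated region (UTR), the part of the mRNA past the stop codon. These 1300 transcripts belonged to 996 of 21861 protein-coding genes. For each of them the distance was counted in spliced bases from the last base of the stop codon to the last exon junction, and the transcripts were divided at 55 bases.

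The annotation accompanies a study of blood mononuclear cells from reindeer (Rangifer tarandus), sampled 3 days after wounding and profiled as single-cell 3′ RNA libraries. The 2 back libraries came from blood of the saphenous vein and the 2 antler libraries from blood of the distal antler velvet, with 12000 cells loaded for each. Expression values per cell were not analysed here, so nothing below compares antler with back. All values describe cattle (Bos taurus) gene models on the assembly ARS-UCD1.2, which is not the species of the samples.

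During splicing, an exon junction complex of proteins is left on the mRNA just upstream of each junction, and the first ribosomes to read the mRNA remove the complexes they pass. A complex that lies well past the stop codon is not removed, and with the helicase UPF1 it can mark the mRNA for nonsense-mediated decay (NMD). By the usual rule, a junction more than 50 to 55 bases past the stop makes an mRNA a candidate for this decay, while a nearer junction does not. Most mammalian genes have their stop codon in the last exon. Some RNA-binding proteins are known to lower their own mRNA by splicing it into a form with a junction past the stop.

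Most of the introns after the stop lay close to it. The distance to the last junction was 55 bases or less in 1054 of the 1300 transcripts (81.1%) and over 55 bases in 246 (18.9%). The median distance was 22 bases, with quartiles of 10 and 41 bases and a range from 1 to 3250 bases. The most frequent distance was 1 base, found in 53 transcripts.

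Counted in steps of 5 bases, the number of transcripts had fallen to a few before 55 bases was reached. From 1 to 5 bases there were 184 transcripts, from 36 to 40 bases there were 85, from 41 to 45 bases 53, from 46 to 50 bases 21, and from 51 to 55 bases 11. On the far side there were 9 transcripts from 56 to 60 bases and 0 from 71 to 80 bases. Beyond that the transcripts were spread thinly over a long range, with 54 above 100 and up to 200 bases, 89 above 200 and up to 500 bases, and 45 above 500 and up to 1000 bases. These steps are of unequal width, and the count per base fell from each to the next. The transcripts over 55 bases had a median distance of 331.5 bases (quartiles 152.75 and 566.25 bases). At 55 bases or less the distance was a multiple of 3 in 32.5% of transcripts, and it left a remainder of 1 or 2 in 33.5% and 34%.

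**Figure D1:**
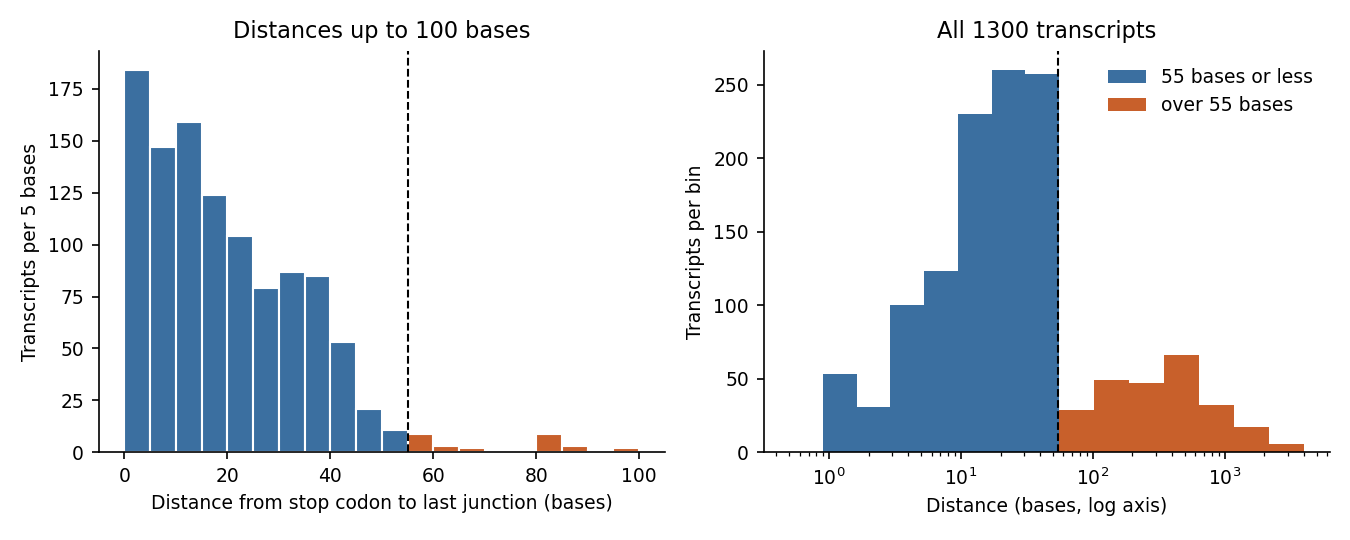
Distance from the stop codon to the last exon junction in the 1300 transcripts. Left, transcripts per 5 bases up to 100 bases, with the dashed line at 55 bases; right, all transcripts on a log axis with bins that meet at 55 bases. Bars in blue are transcripts at 55 bases or less (1054) and bars in orange those over it (246).

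Few genes lay near the dividing line, so its exact place moved few of them. Just within it were LEMD1 at 54 bases, and C16H1orf105 and C3H1orf52, both at 53 bases. Just over it were CBLC, a ubiquitin ligase gene, MTA3, a chromatin remodelling gene, and ITGA3, an integrin chain, each at 57 bases. ITGA3 had a further transcript with another stop and a distance of 30 bases, so this gene stood on both sides. In all, 11 genes had transcripts on both sides, and 238 genes had at least 1 transcript over 55 bases.

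The number of junctions is tied to the distance, since each further exon in the UTR adds to it, and it is given as a description. Of the 1054 transcripts at 55 bases or less, 2 had more than 1 junction after the stop. Over 55 bases, 131 of 246 transcripts (53.3%) had 2 or more junctions, and 115 had 1. In 45 of the 246 the first junction lay within 55 bases and only a later one beyond. The highest numbers by gene were 14 junctions in DZIP1, which encodes a cilium protein, 12 in GNAS, 11 in NCBP1, and 10 in INTS4, SIDT2 and TRPC1. In such transcripts a long row of exons was annotated as untranslated; for DZIP1 no stop codon was annotated.

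The exon that held the stop was short in transcripts with an intron after it. Its median length was 113 bases in transcripts at 55 bases or less and 214 bases in those over it, against 861 bases in the 20100 transcripts whose 3′ UTR was unbroken. In an unbroken transcript that exon usually holds the whole 3′ UTR, and in the others only the first UTR segment. This contrast in exon length therefore follows largely from the definition. The whole 3′ UTR, by contrast, had a median of 624 bases at 55 bases or less and 883 bases over it, against 590 bases when unbroken. At 55 bases or less a median of 97.4% of the UTR lay past the last junction, and over 55 bases a median of 57.5%. Both shares follow in part from the division itself, since the distance is the part of the UTR before the last junction, and they are given as a description.

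Short and long distances differed in what the other transcripts of the same gene did. In 109 of 246 transcripts over 55 bases (44.3%), an intron after the stop was a coding intron in another transcript of the gene, with the same start and end. At 55 bases or less this held for 30 of 1054 (2.85%). At 55 bases or less, another transcript had the same intron after its stop in 284 transcripts (26.9%), against 3 (1.22%) over 55 bases. A transcript was counted there only where no intron was coding elsewhere and no other transcript had the same stop without an intron. These shares describe the full annotation, which has no replicates, so no test was made.

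**Figure D2:**
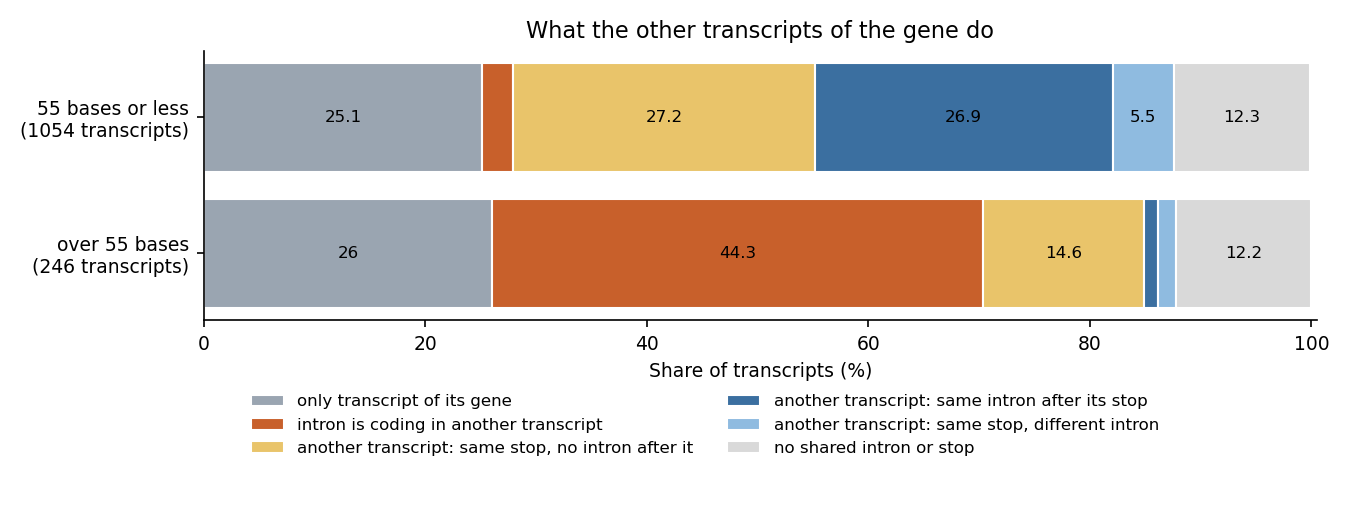
Share of transcripts (horizontal axis, percent) by what the other transcripts of the same gene do, for 1054 transcripts at 55 bases or less and 246 over 55 bases. Each transcript is counted in the first class that holds for it, in the order drawn from left to right; the class with a coding intron in another transcript takes 2.85% above and 44.3% below.

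The number of junctions went with this class. Among transcripts over 55 bases, an intron was coding elsewhere in 88 of 131 (67.2%) with 2 or more junctions and in 21 of 115 (18.3%) with 1 junction. Conversely, 41 of the 115 with 1 junction were the only transcript of their gene, against 23 of the 131 with more. Of the 238 genes with a transcript over 55 bases, 173 (72.7%) had another transcript that was not, 64 (26.9%) had no other transcript, and 1 gene had 3 transcripts that were all over it. That gene was 1 of the 2 genes with the symbol GNAS, described below.

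Where the intron was coding elsewhere, the stop had 2 kinds of position relative to that other transcript. In 65 of the 109 transcripts over 55 bases the stop lay on bases that the other transcript also translates, and in 44 it lay inside one of its introns, that is, in an exon or exon part that the other transcript splices out. Of the 65, the stop was read in another frame in 61. This is largely given beforehand, since an annotated stop codon in the same frame would end the other transcript too. The remaining 4 were in the same frame, and no stop codon was annotated for any of them (DZIP1, FKBP14, AP1B1 and ENSBTAG00000027204), and whether translation ends there was not tested. With the stop inside an intron of the other transcript, the member's coding length was a median of 72.2% of that transcript's. With the stop on its coding bases the median was 53.6%. This is a ratio of 2 total lengths, which reached 124% in the first group.

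NCBP1 had its stop on coding bases of the other transcript. It encodes the large subunit of the nuclear cap-binding complex, which binds the cap of new mRNAs (chromosome 8, 62840870 to 62878151, plus strand). Its member transcript had a coding length of 996 bases, 11 junctions after the stop and a distance of 3066 bases, and the other transcript had a coding length of 2370 bases and no junction past its stop. ETF1, which encodes the release factor that recognises stop codons, had a member with 123 coding bases against 1311 in its other transcript, and a distance of 152 bases. TRPC1, a cation channel gene, had 2 members of 207 and 201 coding bases with distances of 1792 and 1696 bases, against a longest coding length of 2409 bases. MASP2, a complement protease gene, had 2 members at 817 and 859 bases with 7 junctions each. In these genes the stop lay far upstream of that of the longest coding sequence, and exon bases that another transcript translates were listed as UTR.

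MYD88 was a case of a stop inside an intron of the other transcript. It encodes the adaptor of Toll-like receptors (chromosome 22, 11609349 to 11613789, plus strand). Its member had 657 coding bases against 1152, and the intron after its stop, 269 bases long, was a coding intron of the other transcript, 111 bases past the stop. SFT2D2, MTMR3, PARP6 and CLHC1 were of the same kind, with distances of 2495, 1675, 557 and 1958 bases.

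Coding length itself differed along the same line. Among transcripts whose gene had another transcript, coding length was a median of 99.1% of the gene's longest at 55 bases or less (lower quartile 92%, 789 transcripts) and 72.9% over 55 bases (quartiles 51.4% and 93.3%, 182 transcripts). The transcript had the gene's longest coding length, ties included, in 360 of 789 cases (45.6%) at 55 bases or less and in 32 of 182 (17.6%) over it. An intron close past the stop was thus mostly annotated on nearly full-length coding sequences.

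**Figure D3:**
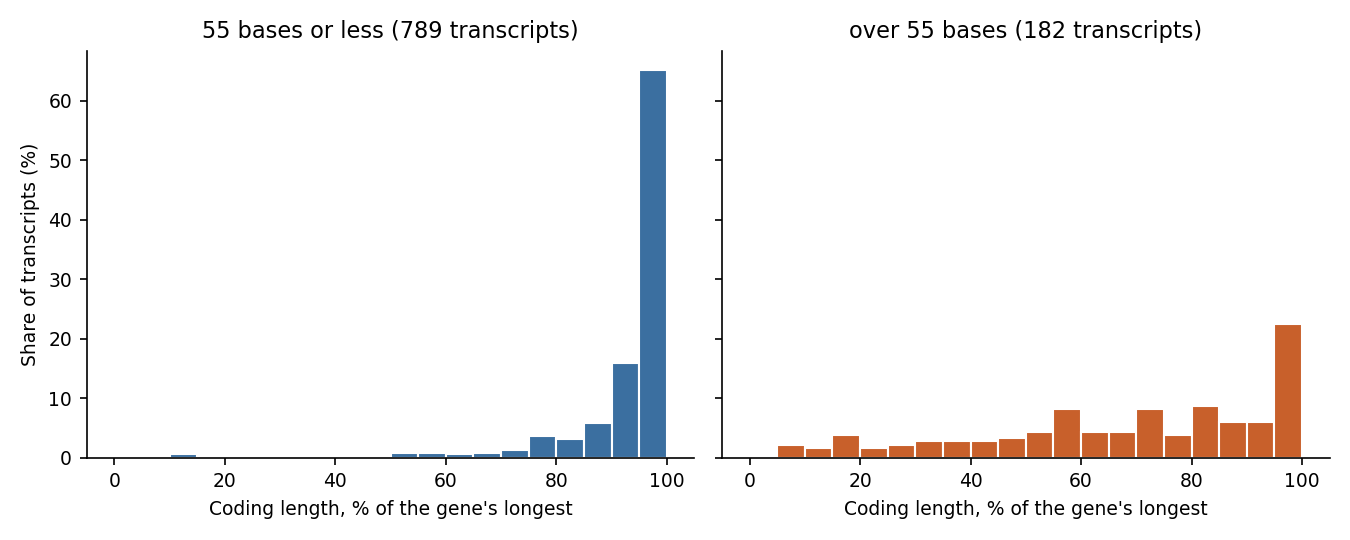
Coding length of each transcript as a percent of the longest coding length of its gene (horizontal axis, bins of 5 percent), for genes with more than 1 transcript; the vertical axis is the share of transcripts. At 55 bases or less (left, 789 transcripts) most lie in the last bin, and over 55 bases (right, 182 transcripts) they spread over the whole range, with medians of 99.1% and 72.9%.

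Whether another transcript had no intron after its own stop could be answered for 667 of the 996 genes, since 329 had a single transcript. Of these 667 genes, 573 (85.9%) had a transcript without any intron after its stop. In 137 of the 573, every such transcript had no annotated 3′ UTR at all, so splicing past the stop is not described for them. In 94 of the 667 genes (14.1%) all transcripts had an intron after the stop.

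A stricter question is what a transcript with the same stop and no intron after it looked like. There were 342 member transcripts with such a partner. In 132 of them (38.6%) the partner had no annotated UTR, and in 83 (24.3%) the partner's UTR ended exactly on the last base before the intron. It ended inside the intron in 58 (17%) and covered the whole intron in 69 (20.2%). It ended before the junction in 0 of 342. For 215 of the 342, then, the partner reached no further than the splice site, and in 127 its exon ran on into the intron.

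Genes of each kind were found among those listed. ZFP36L1, an RNA-binding protein that destabilises AU-rich mRNAs, had 2 transcripts with the same coding length of 1014 bases, of which 1 spliced out 715 bases beginning 6 bases past the stop and the other read through them into a UTR of 1866 bases. PRDM1, a transcription factor that drives plasma cell differentiation, and TOP2A, the DNA topoisomerase of dividing cells, likewise had a partner that covered the intron. In MPO, the peroxidase of neutrophils, and CCR9, a chemokine receptor of gut-homing cells, the partner ended inside the intron. In CD74, PDGFB, TCF4, EMCN, RPS24 and CELF1 the partner ended exactly at the junction, and the CD74 partner accordingly had a UTR of 16 bases, the same as the distance of the member.

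In the annotation, 5.58% of the 16808 genes with a symbol had an intron after the stop in at least 1 transcript, and 1.31% had a last junction over 55 bases. Of 113 genes in 5 lists of splicing factors, RNA-binding regulators, decay factors and exon junction proteins, 21 were members (18.6%) and 9 were over 55 bases (7.96%). Genes with more transcripts were also more often members: 2.41% of all protein-coding genes with 1 transcript, 6.36% with 2, 9.4% with 3, 10.1% with 4 and 12.2% with 5 or more. The 5 lists had 2 or more transcripts for 58.4% of their genes, against 46.1% of named genes. Among genes with 2 or more transcripts, 18 of 66 in the lists (27.3%) and 8.22% of named genes were members; among those with 1 transcript the shares were 6.38% (3 of 47) and 3.32%. A gene can be a member only if a 3′ UTR is annotated, which held for 14319 of 21861 protein-coding genes. In the lists it held for 15 of 19 SR, 24 of 27 hnRNP and 30 of 34 other RNA-binding genes. It also held for 17 of 20 decay and 13 of 13 junction complex genes. Of all genes with a 3′ UTR, 6.96% were members. The parts of transcript number and of UTR annotation in the counts of these and the later lists were not tested further.

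The hnRNP proteins package nuclear RNA and steer splicing, and 7 of their 27 genes were members (25.9%, against 5.58% of named genes). Of the 27, 2 were over 55 bases (7.41%, against 1.31%). HNRNPD and HNRNPDL, neighbours on the minus strand of chromosome 6, had close distances of 27 and 21 bases. All 3 HNRNPD transcripts used the same stop and the same first splice site after it, and joined it to 2 different acceptors, with introns of 1180, 1180 and 313 bases. HNRNPDL did the same with introns of 1162 and 371 bases from 1 splice site. The shorter intron of HNRNPDL was a coding intron of a further transcript, whose coding length was 1200 bases against 1260. HNRNPA1 had 2 transcripts at 10 bases, with introns of 235 and 2392 bases from 1 splice site.

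HNRNPA2B1 stood on both sides of the dividing line with a single stop codon (chromosome 4, 69735135 to 69744610, plus strand). Each of its 3 transcripts had a junction 21 bases past the stop. In 2 transcripts that was the only one, and in the remaining one an exon of 136 bases followed, so that its last junction lay 157 bases past the stop. PTBP1, a splicing repressor, had 2 transcripts without an intron after the stop and 1 with 2 junctions and a distance of 289 bases. The coding length of that transcript was 1338 bases against a longest of 1671 bases, and its stop lay on coding bases of the others in another frame. HNRNPU at 23 bases and RALY at 4 bases were the other 2 hnRNP members.

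**Figure D4:**
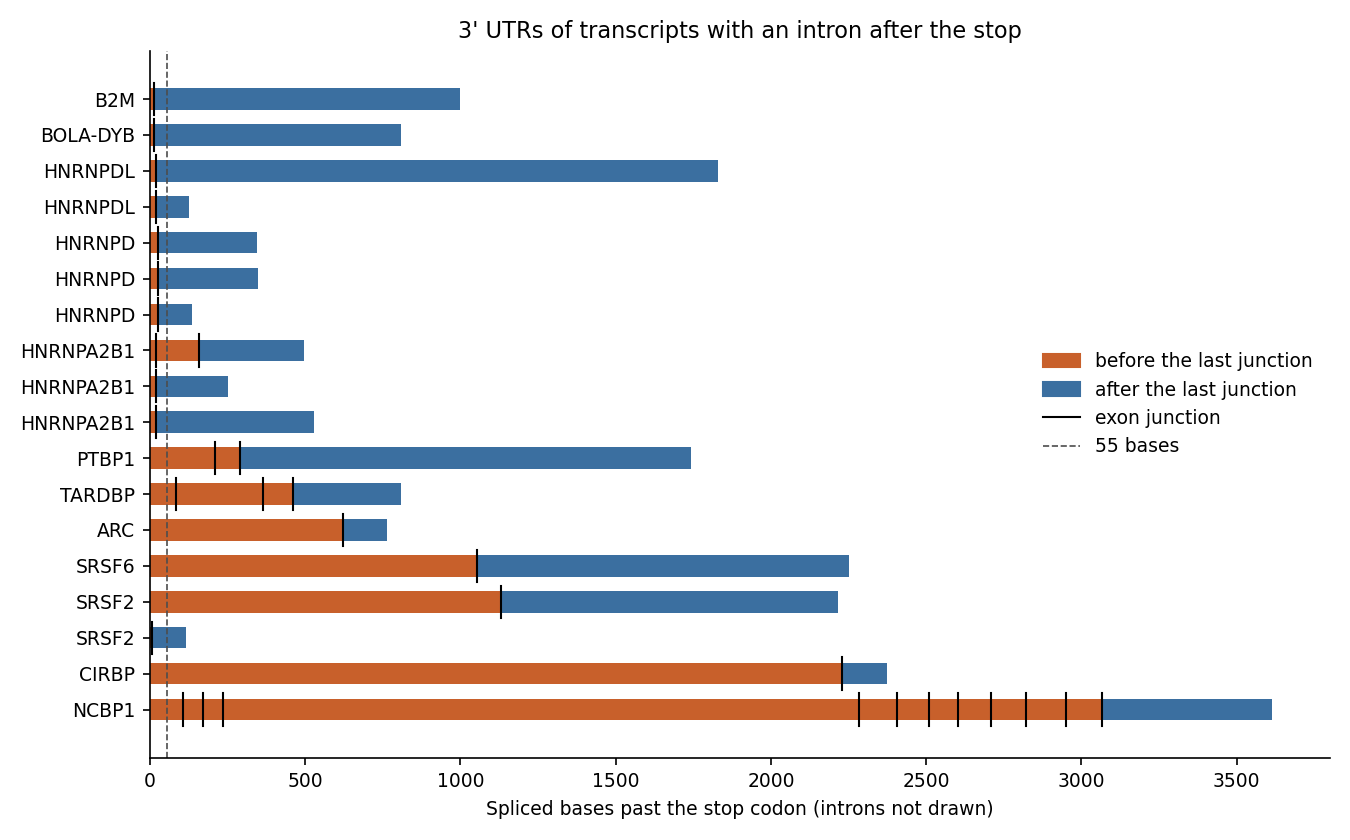
The 3′ UTRs of member transcripts of 12 genes, drawn to scale in spliced bases from the stop codon (horizontal axis; introns not drawn), 1 bar per transcript. Orange is UTR before the last junction, blue is UTR after it, black ticks are junctions and the dashed line is at 55 bases; CIRBP has its junction at 2229 bases and NCBP1 its last of 11 at 3066 bases.

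The SR proteins activate splicing, and 3 of 19 matched genes were members (15.8%, against 5.58% of named genes). Of the 19, 2 were over 55 bases (10.5%, against 1.31%). SRSF2 (chromosome 19, 55043351 to 55047192, plus strand) had 2 transcripts with the same stop and a coding length of 663 bases. The first had a junction 7 bases past the stop with an intron of 1016 bases, and the second ran 1131 bases past the stop to an intron of 516 bases. The last exon of the first ended on the base before the intron of the second began. SRSF6 (chromosome 13, 72096560 to 72102389, plus strand) had a distance of 1052 bases in its long transcript, which held 1035 coding bases, and its short transcript with 405 coding bases had no intron after the stop. SRSF10 had a distance of 27 bases. The members SRSF2 and SRSF6 thus carried the far junction on their longest coding sequence, unlike the transcripts of NCBP1 and ETF1.

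Of 34 other RNA-binding regulators, 6 were members (17.6%, against 5.58% of named genes) and 2 of these were over 55 bases (5.88%, against 1.31%). TARDBP, which encodes the splicing regulator TDP-43 (chromosome 16, 42593901 to 42605389, minus strand), had a member with 3 junctions after the stop and a distance of 461 bases. Its coding length was 894 bases, against 1242 bases in the other transcript, which had another stop. CIRBP, a cold-inducible RNA-binding protein (chromosome 7, 43707339 to 43712131, plus strand), had a single transcript with an intron of 157 bases that began 2229 bases past the stop. The related cold-inducible gene RBM3 had its junction 6 bases past the stop. MBNL1, a splicing regulator, had 6 member transcripts of 9, all with a distance of 18 bases, and CELF1 had 4 of 5, all at 39 bases; the remaining member was ZFP36L1. In MBNL1, CELF1, HNRNPA1, HNRNPA2B1, HNRNPD and HNRNPDL, 2 or more introns began at the same splice site after the same stop, an arrangement found in 46 of the 996 genes.

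A few factors of the decay pathway and of the exon junction complex were among the members. Of 20 decay genes, 3 were members (15%, against 5.58% of named genes). UPF1, the central helicase, had a distance of 3 bases in its only transcript. SMG8, a regulator of the kinase that acts on UPF1, was at 59 bases, and ETF1 was the remaining member. Of 13 genes of the exon junction complex and its partners, 2 were members (15.4%): CASC3, a core component, and NCBP1. CASC3 had 2 members at 40 bases and another transcript with the same stop and no UTR. The SMG8 member had 873 coding bases against a longest of 3072 bases, and no other transcript of the gene used its stop. That stop, at 10230265 on chromosome 19, lay downstream of all the others, which lay at 10165552, 10211476 and 10230218. The member is thus not a form with an earlier stop, and whether all these transcripts belong to 1 gene was not tested. Only SMG8, ETF1 and NCBP1 of these 5 were over 55 bases. They made up 10% of the decay list and 7.69% of the junction complex list, against 1.31% of named genes.

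Genes listed because an intron after the stop is known for them in mammals were found in 5 of 10 cases, and that list was chosen for this feature, so its share is no independent evidence. ARC, which encodes a synaptic protein of immediate-early type (chromosome 14, 1741249 to 1743574, plus strand), had 1 transcript with a coding length of 1188 bases. An intron of 257 bases, from 1743176 to 1743432, lay 621 bases past the stop. This single annotated form had no alternative without the junction. HNRNPD, HNRNPDL, HNRNPA2B1 and TARDBP were the other members. ROBO3, SRSF1, SRSF5, SRSF7 and TRA2A had no intron after the stop in this annotation.

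Genes of antigen presentation had the second highest share of the lists, 7 of 24 (29.2%, against 5.58% of named genes). Of the 24, 1 was over 55 bases (4.17%, against 1.31% of named genes). Class II molecules, which present peptides to helper T cells, are built of an alpha and a beta chain. Among the alpha chains, BOLA-DRA, BOLA-DQA1 and BOLA-DYA had an intron after the stop at 11, 19 and 23 bases, whereas BOLA-DMA and BOLA-DOA had none. BOLA-DQA5, which was looked up after these values were seen, had 1 at 20 bases in 1 of its 3 transcripts. Among the beta chains, BOLA-DYB had 1 at 14 bases, and BOLA-DQB, BOLA-DMB and BOLA-DOB had none. These genes are members of 1 family, so they are not independent cases. CD74, the chaperone of class II molecules, had 1 at 16 bases.

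On the class I side, B2M and BOLA-NC1 were members. B2M encodes beta-2-microglobulin, which pairs with class I heavy chains. It had a single transcript of 354 coding bases in which an intron of 1005 bases lay 14 bases past the stop, and 986 bases of UTR followed it. BOLA-NC1, a non-classical class I gene, was the only member of the list over 55 bases. It had 3 junctions after the stop, the first 1 base and the last 82 bases past it. BOLA, TAP1, TAP2, TAPBP, PSMB8 and PSMB9 had no intron after the stop.

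Some blood cell markers had introns after the stop, all of them close to it, as in 81.1% of all member transcripts. Of 159 genes in 6 lists, 15 were members (9.43%), against 5.58% of named genes. Over 55 bases there were 0 of 159, against 1.31%, and whether these 2 shares differ was not tested. Genes with 2 or more transcripts made up 48.4% of these lists. The T cell members were CD4 (27 bases), LAT (16 bases), LEF1 (6 bases) and CD5 (3 bases), that is, a co-receptor, a signalling adaptor, a transcription factor and a surface receptor. The B cell and plasma cell members included PRDM1 (19 bases), CR2 (15 bases), TNFRSF13B (13 bases) and BANK1 (5 bases). None of 22 NK and cytotoxic genes was a member.

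CCR9 (15 bases), FCGR3A (11 bases) and TCF4 (4 bases) were members among 31 monocyte and dendritic cell genes, and MPO and LCN2, both at 7 bases, among 23 granulocyte genes. SELP, the adhesion molecule P-selectin, had a distance of 1 base and was the 1 member of 24 red cell and platelet genes. In CD4 the member had its own stop: its coding length was 1185 bases, against 1293 and 1338 bases in the other 2 transcripts, which ended at other stops with no intron after them. LEF1 was similar, with an intron of 12168 bases after the stop of the member and another stop in the remaining 2 transcripts.

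**Figure D5:**
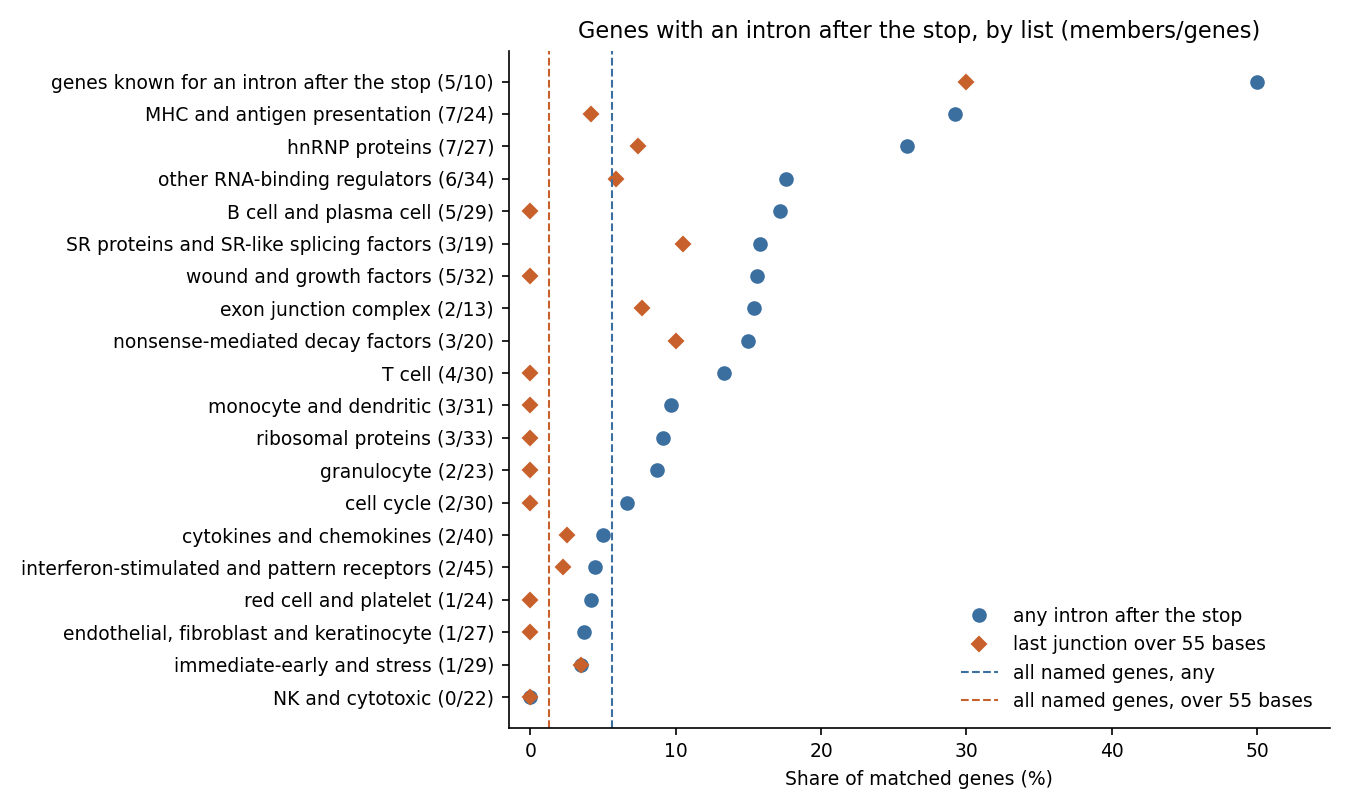
Share of the matched genes of each list (horizontal axis, percent) with an intron after the stop in at least 1 transcript (blue circles) and with a last junction over 55 bases (orange diamonds). Dashed lines give the same shares over all 16808 named genes, 5.58% and 1.31%; the 6 blood cell lists have no gene over 55 bases.

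Signalling genes gave 2 members over 55 bases. CXCL12, the chemokine that retains cells in bone marrow, had 4 transcripts with 4 different stops, and 1 of them had a distance of 705 bases. That intron was 52 bases long. MYD88, described above, was the other. CSF1, the growth factor of macrophages, had its junction 13 bases past the stop, and its intron of 3866 bases was a coding intron of its other transcript. Among 45 interferon-stimulated genes and pattern receptors IFI44L was the second member, with a distance of 4 bases. The share of members was 4.44% for these 45 genes and 5% for 40 cytokines and chemokines (2 genes). Both were close to the 5.58% of all named genes. Over 55 bases the shares were 2.22% and 2.5%, that is, 1 gene in each list, against 1.31% of named genes.

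Growth factor genes had 5 members of 32 (15.6%, against 5.58% of named genes). All lay close to the stop, as did 81.1% of all member transcripts: PDGFB at 26 bases, VEGFB at 22, AREG and HBEGF at 18 and PDGFA at 13 bases. AREG and HBEGF, ligands of the epidermal growth factor receptor, each had a single transcript. Of 30 cell cycle genes, CDKN1B (8 bases) and TOP2A (3 bases) were members (6.67%). Of 33 ribosomal protein genes, RPS24 (19 bases), RPS3 (3 bases) and RPL7 (1 base) were members (9.09%). Endothelial, fibroblast and keratinocyte markers gave 1 member of 27 (3.7%), the endothelial sialomucin gene EMCN at 39 bases. ARC was the 1 member among 29 immediate-early and stress genes (3.45%).

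The largest distances included several genes with a single junction. AFAP1, an actin filament protein, had the largest of all, 3250 bases, in its only transcript, and its intron was 63 bases long. KCNA6, a potassium channel gene, followed with 3126 bases and an intron of 31568 bases. CIRBP at 2229 bases was the remaining gene of this form among the 10 with the largest distance. FKBP14 at 2302 bases had 3 junctions, with no stop codon annotated for that transcript. NCBP1, SFT2D2, CLHC1, TRPC1 and MTMR3, also among the 10, had an intron that was coding elsewhere.

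Very short introns were annotated in transcripts over 55 bases. All 1384 different introns after a stop had a median of 1091 bases (quartiles 394 and 2806 bases). For 8623 coding introns of the same transcripts the median was 1335 bases (quartiles 474 and 3656). The shortest of those coding introns was 1 base, so very short gaps were not confined to introns after a stop. Of the 1384, 7 were under 50 bases. They included introns of 30 bases in COX19 and ARFGAP2, 32 bases in ANXA11, 40 bases in KRT222 and 45 bases in CPTP, and all 7 lay in transcripts over 55 bases. An intron under 100 bases was present in 37 of 246 transcripts over 55 bases (15%) and in 43 of 1054 at 55 bases or less (4.08%). Whether such short gaps are spliced introns was not tested.

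Long introns after a stop were found in LRRTM3, ERC2, SCAF8 and CDK14. LRRTM3, a synaptic adhesion gene, had one of 199443 bases that began 13 bases past its stop, and ERC2, of the presynaptic active zone, one of 180325 bases at 39 bases. SCAF8 had one of 106248 bases and CDK14 one of 99567 bases. In SCAF8 all 4 transcripts had a distance of 14 bases, with 3 different introns.

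The GNAS locus is known for the stimulatory G protein alpha subunit. At this locus an upstream exon is known to encode another protein, NESP55, whose mRNA carries the shared exons after its stop. The annotation held 2 genes with the symbol GNAS on the minus strand of chromosome 13. The longer one had 3 transcripts, each with a coding length of 723 bases and the same stop, and with 12, 4 and 3 junctions after it at distances of 941, 221 and 160 bases. Exons past their stops overlapped exons of the other GNAS gene. Such overlap on the same strand was found in 10 of 246 transcripts over 55 bases (4.07%) and 10 of 1054 at 55 bases or less (0.949%). Overlap with exons on the opposite strand was found in 23 (9.35%) and 41 (3.89%).

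Libraries of the kind used in the study read an mRNA near its 3′ end, and so first of all the segment past the last junction. That last segment had a median of 560.5 bases (quartiles 227.75 and 1057 bases) over the 1300 transcripts. In 271 of 971 transcripts whose gene had another transcript (27.9%), it shared no base with an exon of any other transcript, so in those 247 genes that stretch was annotated through members alone. In 312 genes a member reached further downstream than every other transcript. How reads in these exons were counted for reindeer was not analysed here.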

How the data were processed

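The deposited annotation holds 1020224 features, each with the positions of its first and last base; the authors' header line names the build ARS-UCD1.2. The submitters' processing notes list STAR, Cell Ranger 3 and Seurat, and the sources used here do not say how the annotation was applied to reindeer reads. No sequence was used.

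For each transcript, 3′ UTR segments were ordered along the strand, and the distance was the sum of all but the last segment. Introns were compared within a gene by both ends. A coding intron lies between the start and the stop of a transcript. All 1300 transcripts have the biotype protein-coding; for 11 no stop codon line was present, and the end of the coding sequence was used. A transcript with 1 UTR segment that starts at a junction directly beside the stop (32 transcripts) was not taken. The annotation is complete and has no samples or replicates, so no test was made and no depth applies.

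Genes were looked up by exact symbol: 540 of 553 entries in 20 lists matched, and a gene in several lists counts in each. The members and lists were chosen with earlier results of these data known. Named genes were all members of the RNA-binding, decay, junction and known-intron lists, up to 6 per other list by distance, and the genes with the largest distances (10), most junctions (10), longest and shortest introns (5 each) and nearest to the split (3 per side). BOLA-DRA, BOLA-DQA5, AP1B1, ENSBTAG00000027204, TSPAN2 and STX3, and genes without an intron after the stop, were added after their values were seen. EPB41L4A also fell under this rule, with 8 junctions. Some genes that the rule names are not reported here.

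The reader was checked on a simulated annotation of 2000 genes, where distance and relation to a second transcript came out exactly for all 1657 transcripts with such an intron. Scripts ran under Python 3.11.15, using NumPy 2.4.6 and pandas 2.3.3, with matplotlib 3.10.9 for plots and SciPy 1.17.1 for exact binomial intervals. Alternatives changed the split, the start of counting, the minimum intron, the transcripts read and the definition of a shared intron.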

Additional observations from a re-analysis of the deposited data

How the results depend on the processing

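Of 25 alternatives to 6 results, 13 left the value within its exact 95% binomial interval, or, for the count of transcripts, within 1.5 times of it, and 12 moved it. The count of 1300 transcripts and the median distance of 22 bases were not moved by any of theirs. The share over 55 bases (18.9%) was 16.7% with the split at 100 bases, 15.5% with the first junction in place of the last, and 23% with 1 transcript per gene. The share of genes with an intron after the stop (4.56% of protein-coding genes) was 5.58% of genes with a symbol, 6.96% of genes with a 3′ UTR, 8.1% of genes with 2 or more transcripts, and 2.74% when the transcript with the longest coding sequence alone was read. Another transcript had no intron after its own stop in 57.5% of member genes, and in 85.9% of those with 2 or more transcripts. The share was 52.2% when another transcript had to have none of the same introns, and 26.9% when the stop had to be the same. An intron was coding elsewhere in 10.7% of transcripts, in 8.15% when every intron had to be, and in 25.7% when 1 shared end sufficed. The denominators and definitions set these differences. The intervals treat transcripts as independent, which those of 1 gene are not. No paired analysis was possible because no value belongs to a sample.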

Other observations

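Lengths past the last junction had a preferred value. In 45 member transcripts of 34 genes, CD5 and 3 transcripts of CELF1 among them, the last segment was exactly 1000 bases long, against 2 transcripts at 1 base less and 1 transcript at 1 base more. The whole 3′ UTR, by contrast, was exactly 1000 bases in 1 member, the transcript of B2M. Among transcripts with an unbroken UTR, 904 of 20100 had exactly 1000 bases.

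A whole other gene lay inside an intron after the stop in 11 transcripts, 9 of them at 55 bases or less. TSHB, the beta chain of thyrotropin, lay inside the intron of TSPAN2, 31656 bases long and 20 bases past the stop, and MRPL16, a mitochondrial ribosomal protein gene, inside an intron of STX3, 35606 bases long, in the transcript whose last junction was 254 bases past the stop. These genes were chosen after their values were seen.

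Member genes made up between 2.75% (chromosome 21) and 7.09% (chromosome 6) of the protein-coding genes of the numbered chromosomes, 4.97% on chromosome X, and 0 of 13 genes of the mitochondrial genome.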
